A study of Homo sapiens with 16 samples.

Results

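The PRC1 subunits described here are 9 genes chosen by symbol: CBX2, CBX6, CBX7, CBX8, RING1, RNF2, BMI1, PCGF2 and PHC1. All 9 were found directly by symbol among the 25728 rows of a table of read counts. Of these, 8 were tested among 11863 genes, because CBX7 had too few reads to pass the filter on low counts. RNA was sequenced from LAN-1 and Kelly, established human neuroblastoma lines that carry extra copies of the oncogene MYCN. Cells were given the EZH2 inhibitor GSK126 at 2 uM or the solvent DMSO, and EZH2 is the histone methyltransferase of PRC2. The 8 groups were LAN-1 with GSK126 for 5 days, LAN-1 with DMSO for 5 days, LAN-1 with GSK126 for 2 days, LAN-1 with DMSO for 2 days, and the same 4 conditions in Kelly. Each group held 2 libraries, 16 in all, and each line stands for itself alone as a model.

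Polycomb repressive complex 1 places a single ubiquitin on a lysine of histone H2A and compacts chromatin. In its canonical form a CBX protein reads H3K27me3, the mark that EZH2 writes as part of PRC2, and a PHC protein links neighbouring complexes. Every form of the complex holds RING1 or RNF2 as the ubiquitin ligase, paired with a PCGF protein such as BMI1 or PCGF2. Variant forms replace the CBX reader with RYBP or YAF2 and can reach chromatin without the mark. The inhibitor acts on the enzyme that makes the mark, so the comparisons ask whether transcript levels of the complex that reads it differed with treatment, time and line.

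Promoter sequence is shown for CBX6 and RNF2 because these members had the smallest unadjusted p-values of the GSK126 comparisons at day 5. Each line gives the 250 bases before the transcription start, 5′ to 3′ on the strand of the gene, from RefSeq on GRCh38.p14. The first lies at chr22:38872217-38872466 on the minus strand and the second at chr1:185045308-185045557 on the plus strand.
CBX6: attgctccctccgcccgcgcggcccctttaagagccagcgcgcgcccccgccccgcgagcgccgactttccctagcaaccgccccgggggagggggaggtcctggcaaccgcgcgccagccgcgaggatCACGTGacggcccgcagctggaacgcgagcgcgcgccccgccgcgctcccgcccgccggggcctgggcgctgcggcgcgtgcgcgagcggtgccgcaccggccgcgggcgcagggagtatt
RNF2: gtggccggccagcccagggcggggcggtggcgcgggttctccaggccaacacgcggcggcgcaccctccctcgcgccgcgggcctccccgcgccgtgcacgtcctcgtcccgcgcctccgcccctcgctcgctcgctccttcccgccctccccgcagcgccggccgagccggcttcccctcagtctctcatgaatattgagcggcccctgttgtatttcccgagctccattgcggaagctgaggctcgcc
Capitals mark CACGTG, the E-box that MYC family proteins are known to bind, which reads the same on both strands. It stood in the CBX6 window and in 1 of the BMI1 windows, against 6.49% of 27305 promoters of the same length, and the match is a description only. The CBX6 window held 45 CpG dinucleotides and the RNF2 window 34, where the median promoter held 11.0. Of the 9 members, 7 had a promoter in the table. PCGF2 had 1 CpG in its window, the lowest of them.

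Library totals ran from 912095 to 1666190 counts, and the lowest was the LAN-1 library with GSK126 at day 5, replicate 2. CPM values express a gene's reads per 1e+06 reads of its library after TMM scaling. No label states whether the duplicates were separate cultures, so p-values measure only the spread between these libraries, which may be technical. Intervals on counts cover counting error only. In bulk RNA, fewer cells with a transcript and less transcript per cell cannot be told apart. All 10 genes of an adrenergic neuroblastoma list had reads in both lines, with summed levels of 4194 to 4793 CPM in LAN-1 and 5968 to 8995 CPM in Kelly, although in LAN-1 libraries DBH had at most 6 counts and TH at most 7, both enzymes of catecholamine synthesis. MYCN, 1 of the 10, alone had a median of 1735 CPM in LAN-1 and 2569 CPM in Kelly. With GSK126 at day 5, edgeR called 2 of the 10 higher in LAN-1, where 3.66% of all genes were called. It called 7 of the 10 lower in Kelly, where 4.90% were. The part of these 10 genes in the values of the members was not tested. Summed levels of Schwann cell, haematopoietic, epithelial and endothelial lists stayed at or below 11.5 CPM.

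**Figure D1:**
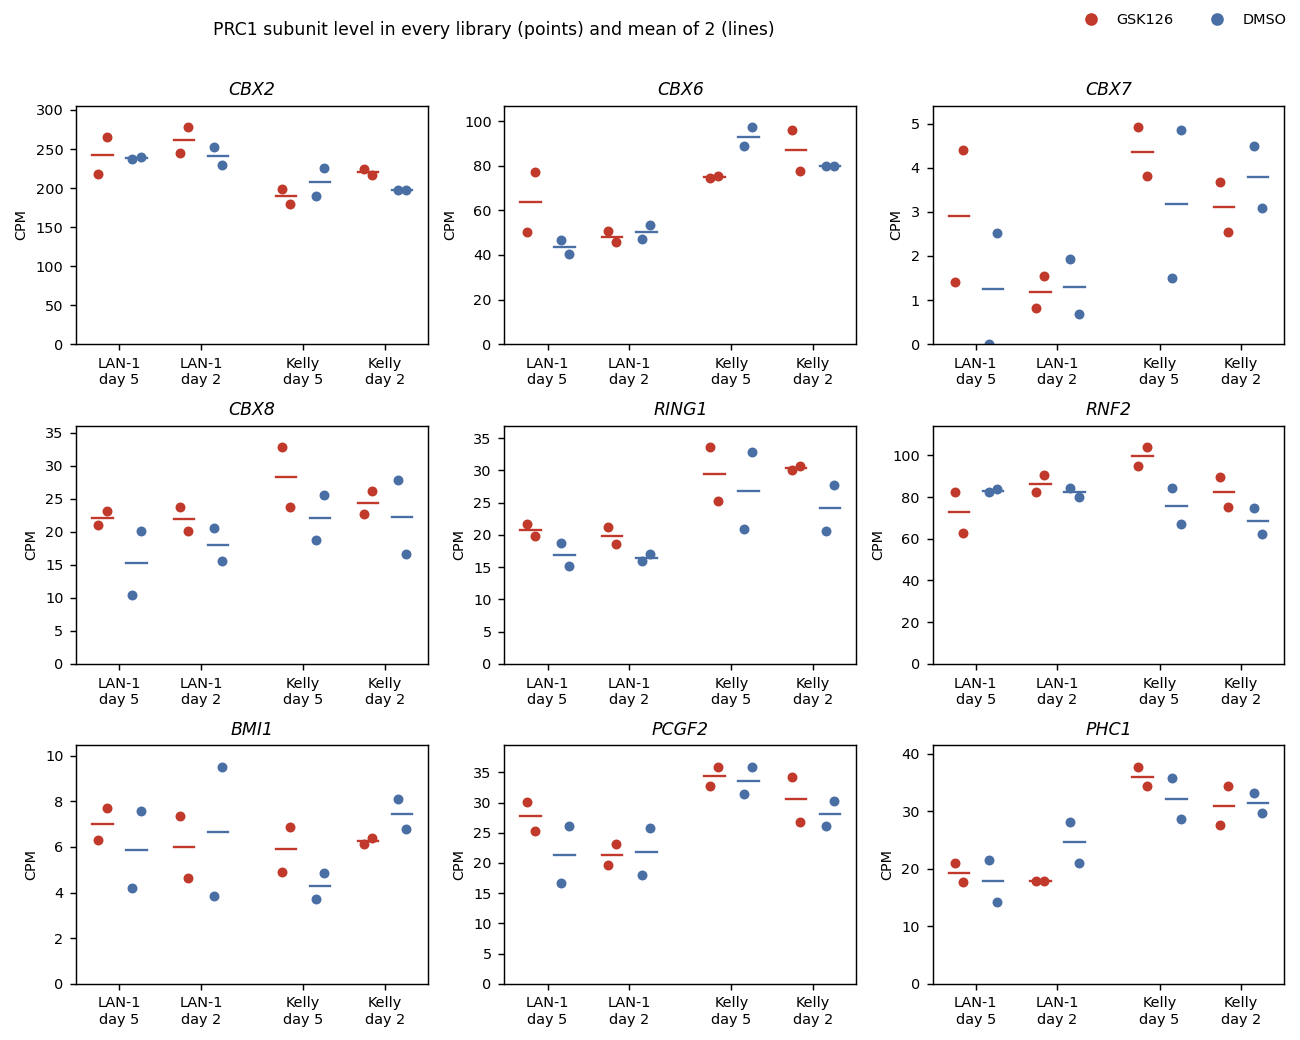
Level of each PRC1 subunit in CPM (y axis, from 0) in every library (points), with the mean of 2 libraries as a line, by line and day (x axis) and treatment (colour). CBX6, RING1, PCGF2 and PHC1 sat lower in all 4 LAN-1 DMSO libraries than in all 4 Kelly DMSO libraries, and CBX2 sat higher.

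Levels per kilobase use the merged length of all annotated exons of a gene, whether or not these lines express them. Such levels, their order and shares of them depend on that length. Per kilobase of exon, the only scale on which different genes are compared here, CBX2 was the most abundant member in both lines. Its median over 8 libraries was 42.8 CPM per kb in LAN-1 and 34.99 CPM per kb in Kelly. RNF2 came next at 21.1 CPM per kb in LAN-1 and 20.4 CPM per kb in Kelly. RING1 was the third at 10.3 CPM per kb in LAN-1 and 15.9 CPM per kb in Kelly. PCGF2, CBX6, CBX8 and PHC1 followed between 3.17 and 6.92 CPM per kb in LAN-1 and between 5.51 and 9.99 CPM per kb in Kelly. BMI1 lay at 1.55 CPM per kb in LAN-1 and 1.42 CPM per kb in Kelly, and CBX7 at 0.197 CPM per kb in LAN-1 and 0.502 CPM per kb in Kelly. The level and place of BMI1 are uncertain, because it shares exons with the readthrough gene COMMD3-BMI1. In LAN-1 the ranges of neighbours in this order did not overlap between CBX2 and RNF2, RNF2 and RING1, PHC1 and BMI1, and BMI1 and CBX7. In Kelly the same held except that RNF2 and RING1 overlapped, and every other pair of neighbours overlapped in both lines.

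GSK126 left no tested PRC1 subunit past the threshold of an adjusted p under 0.05 in any of the 4 comparisons with DMSO by edgeR's quasi-likelihood test. The count was 0 of 8 in LAN-1 at day 5, where 3.66% of all genes were called, and 0 of 8 in LAN-1 at day 2, where 0.152% were. It was 0 of 8 in Kelly at day 5, where 4.90% were called, and 0 of 8 in Kelly at day 2, where 0.177% were. DESeq2 also called 0 members in each. At an unadjusted p under 0.05 there was 1 member in LAN-1 at day 5 (CBX6), 2 in Kelly at day 5 (CBX6 and RNF2), and 0 in either line at day 2. The share of all genes at the same threshold was 16.7% in LAN-1 and 16.5% in Kelly at day 5, and 6.23% in LAN-1 and 7.48% in Kelly at day 2, so the day 5 counts were near the background. The median log2 difference of the 8 members, GSK126 over DMSO, was 0.27 in LAN-1 at day 5 and 0.02 at day 2. In Kelly it was 0.13 at day 5 and 0.14 at day 2. The median of all genes lay between 0.00 and 0.01. The median absolute difference of all genes was 0.21 in LAN-1 and 0.20 in Kelly at day 5, and 0.15 in each line at day 2. Transcripts of CBX2, CBX6, CBX8, RING1 and PCGF2 lay between the 79.4 and 90.9 percentiles of GC content among tested genes. The part of GC content in these medians was not tested, and the members were not tested as a set. Averaged over the 4 comparisons, 0 of 8 were called by edgeR and 0 by DESeq2, while 6.47% of all genes were called by edgeR. CBX8 was the 1 of 8 at an unadjusted p under 0.05, as were 18.9% of all genes.

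The libraries of GSK126 and DMSO did not overlap in CPM for 2 to 4 of the 8 members, depending on line and day. In LAN-1 this held at day 5 for 3 of 8 members (CBX6, CBX8 and RING1, all higher), against 44.2% of all genes, and at day 2 for 2 of 8 (RING1 higher and PHC1 lower), against 36.0%. In Kelly it held at day 5 for 3 of 8 (RNF2 and BMI1 higher, CBX6 lower), against 46.8%, and at day 2 for 4 of 8 (CBX2, RING1 and RNF2 higher, BMI1 lower), against 36.7%. CBX8 and RING1 had estimates above 0 in all 4 comparisons, as did 10.6% of all genes, and no member had estimates below 0 in all 4, as did 9.36% of all genes.

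**Figure D2:**
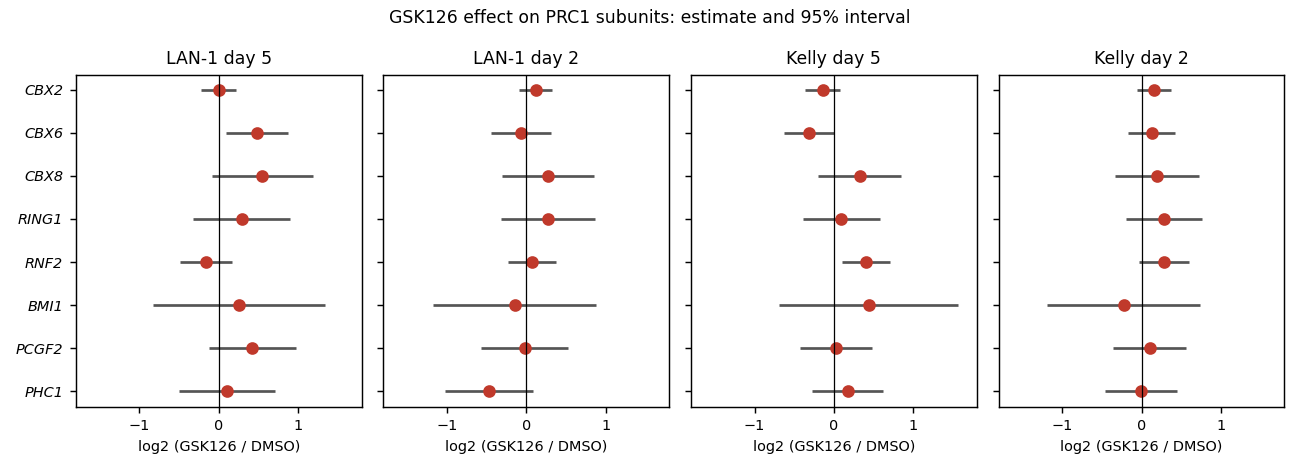
Log2 ratio of GSK126 over DMSO for the 8 tested PRC1 subunits (x axis) with its 95% interval, in 1 panel for each line and day. Intervals exclude 0 for CBX6 in LAN-1 at day 5 (above) and in Kelly at day 5 (below), and for RNF2 in Kelly at day 5 (above), and BMI1 has the widest intervals.

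Members were called between the lines without inhibitor. Among DMSO libraries of both days, 5 of 8 members differed between LAN-1 and Kelly, 1 higher and 4 lower in LAN-1, where the calls covered 67.7% of all genes, with 33.5% higher and 34.2% lower in LAN-1. By DESeq2, too, the 5 members called were CBX2, CBX6, RING1, PCGF2 and PHC1. For these 5 the 4 LAN-1 and 4 Kelly libraries did not overlap, as was the case for 57.6% of all genes. The share of members called was near that background, so the values describe each gene rather than the complex.

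**Figure D3:**
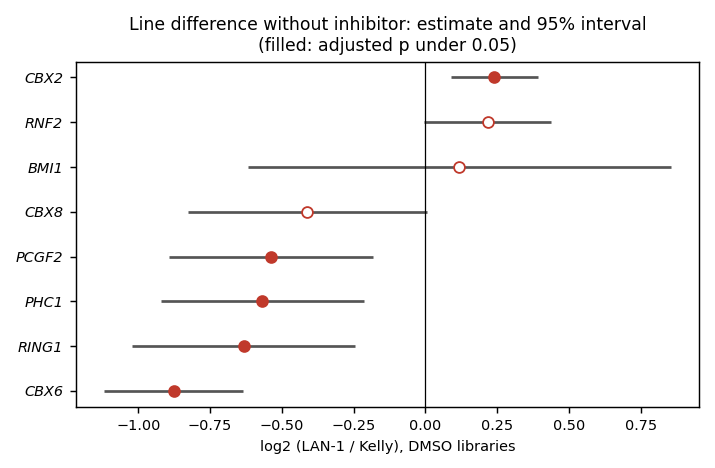
Log2 ratio of LAN-1 over Kelly in DMSO libraries for the 8 tested PRC1 subunits (x axis) with its 95% interval; filled points passed an adjusted p under 0.05. CBX2 lies above 0, and CBX6, RING1, PHC1 and PCGF2 lie below 0.

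Among the CBX readers, CBX2 is a chromodomain protein known for compacting chromatin. It lies on GRCh37 at chr17:77751947-77761782, plus strand, 4148 bases from CBX8. In DMSO, CBX2 had 236.8 and 240.3 CPM at day 5 and 252.3 and 229.5 CPM at day 2 in LAN-1, against 189.8 and 225.5 CPM at day 5 and 197.7 and 197.2 CPM at day 2 in Kelly. All 4 LAN-1 libraries were above all 4 Kelly libraries. The log2 difference was 0.24 ± 0.08 (SE, adjusted p = 0.00418), a ratio of 1.18, and the call was lost without the Kelly DMSO library of day 5, replicate 1 (adjusted p = 0.0549). With GSK126, CBX2 had 218.3 and 265.6 CPM at day 5 and 244.8 and 277.7 CPM at day 2 in LAN-1, and 199.2 and 179.5 CPM at day 5 and 224.1 and 216.9 CPM at day 2 in Kelly. These values overlapped those of DMSO in LAN-1 on both days and in Kelly at day 5, and in Kelly at day 2 both GSK126 libraries were higher. The mean GSK126 effect of CBX2 was 0.03 ± 0.06 on the log2 scale, a ratio of 1.02 with a 95% interval from 0.950 to 1.104, the narrowest of the members.

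CBX6, another reader of the CBX family, lies at chr22:39257427-39268254 on the minus strand of GRCh37. In DMSO it had 46.7 and 40.3 CPM at day 5 and 47.4 and 53.6 CPM at day 2 in LAN-1, against 88.9 and 97.3 CPM at day 5 and 79.96 and 79.8 CPM at day 2 in Kelly. The lines were well apart, with a log2 difference of -0.88 ± 0.12 (adjusted p = 2.78e-10) and a ratio of 0.544, and the call held without any 1 of the 16 libraries. With GSK126, CBX6 had 50.4 and 77.1 CPM at day 5 and 50.6 and 45.6 CPM at day 2 in LAN-1. In Kelly, it had 74.6 and 75.6 CPM with GSK126 at day 5 and 96.1 and 77.8 CPM with GSK126 at day 2. At day 5 both GSK126 libraries were above DMSO in LAN-1 and both were below DMSO in Kelly.

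The log2 difference of CBX6 between GSK126 and DMSO at day 5 was 0.48 ± 0.20 in LAN-1 (adjusted p = 0.169), a ratio of 1.40 with a 95% interval from 1.07 to 1.83. In Kelly at day 5 it was -0.31 ± 0.16 (adjusted p = 0.294), a ratio of 0.804 with an interval from 0.649 to 0.997. The test of the difference between these effects, LAN-1 minus Kelly, gave 0.80 ± 0.25 on the log2 scale (unadjusted p = 0.00195, adjusted p = 0.0793), where 1.85% of all genes were called. It missed the threshold, and its size moved with either LAN-1 library with GSK126 at day 5: without replicate 2 the difference was 0.52 (adjusted p = 0.536), and without replicate 1 it was 1.13 (adjusted p = 0.00642). For the LAN-1 effect alone, the same 2 values were 0.20 (adjusted p = 0.833) and 0.81 (adjusted p = 0.0199). Replicate 2 had the fewest counts of all libraries, and across 9373 genes its log2 ratio to replicate 1 had a correlation of 0.368 with the GC content of the transcript, over genes that share both libraries. CBX6 transcripts have 59.3% GC, and the ratio of replicate 2 to replicate 1 was 0.62 for CBX6 on the log2 scale. After a correction for GC content, added after the data were seen, the difference between lines was 0.61 (adjusted p = 0.226) and the LAN-1 effect 0.33 (adjusted p = 0.436), and the part of GC content in these values was otherwise not tested.

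CBX8, a reader whose gene lies at chr17:77765931-77775482 on the minus strand, was the member with the largest mean GSK126 effect. In LAN-1 it had 21.0 and 23.1 CPM with GSK126 and 10.4 and 20.2 CPM with DMSO at day 5, and 23.7 and 20.1 CPM with GSK126 and 20.5 and 15.6 CPM with DMSO at day 2. In Kelly it had 32.8 and 23.7 CPM with GSK126 and 18.7 and 25.5 CPM with DMSO at day 5, and 22.7 and 26.2 CPM with GSK126 and 27.9 and 16.7 CPM with DMSO at day 2. Only in LAN-1 at day 5 did the libraries separate, by less than 1 CPM. The mean effect was 0.33 ± 0.14 on the log2 scale (unadjusted p = 0.0222, adjusted p = 0.168), a ratio of 1.26 with an interval from 1.03 to 1.54. Between lines in DMSO, CBX8 differed by -0.41 ± 0.21 (adjusted p = 0.0745), and it was called without Kelly DMSO replicate 2 of day 2 (adjusted p = 0.0168), without Kelly DMSO replicate 1 of day 5 (adjusted p = 0.0397) or without LAN-1 DMSO replicate 2 of day 5 (adjusted p = 0.0161).

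CBX7, a reader known from stem cells and from repression of the INK4A locus, was close to the limit of detection. Its gene lies at chr22:39516172-39548685 on the minus strand, 247917 bases from CBX6. No library held more than 4 CBX7 reads in LAN-1 or 8 in Kelly, and 1 LAN-1 library had 0, which allows up to 3. Over 8 libraries each there were 16 reads in LAN-1, or 1.52 CPM (exact 95% Poisson interval 0.870 to 2.47), against 41 in Kelly, or 3.58 CPM (2.57 to 4.86). In a fit of all 19130 rows with at least 1 count, CBX7 in DMSO libraries differed between LAN-1 and Kelly by -1.46 ± 0.64 on the log2 scale (edgeR, adjusted p = 0.0499), from 7 and 20 reads.

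The 4 CBX members were also set against each other within a library. Of their summed signal per kb, CBX2 made up a median of 79.6% in LAN-1, with a range over 8 libraries from 74.7 to 83.3%, against 67.8% in Kelly, from 66.2 to 70.7%. CBX6 made up 11.5% in LAN-1, from 9.55 to 15.4%, and 20.1% in Kelly, from 17.6 to 22.6%. CBX8 made up 8.94% in LAN-1 and 11.1% in Kelly, and CBX7 0.360% in LAN-1 and 0.968% in Kelly. The ranges of CBX2 and of CBX6 did not overlap between lines, and no test was run on these shares. The share of CBX2 was 76.9 and 74.7% with GSK126 and 83.3 and 80.5% with DMSO in LAN-1 at day 5, and 66.2 and 66.8% with GSK126 and 67.9 and 67.7% with DMSO in Kelly at day 5. At day 2 it was 78.0 and 81.9% with GSK126 and 79.96 and 79.3% with DMSO in LAN-1, and 68.7 and 69.96% with GSK126 and 66.8 and 70.7% with DMSO in Kelly. The GSK126 libraries were lower in both lines at day 5 and overlapped DMSO in both lines at day 2. The Kelly DMSO library of day 2, replicate 1, at 66.76%, lay within the Kelly GSK126 range of day 5, 66.19 to 66.83%. In CPM, CBX2 itself overlapped DMSO at day 5 in both lines. For single genes, 44.2% in LAN-1 and 46.8% in Kelly did not overlap at day 5.

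**Figure D4:**
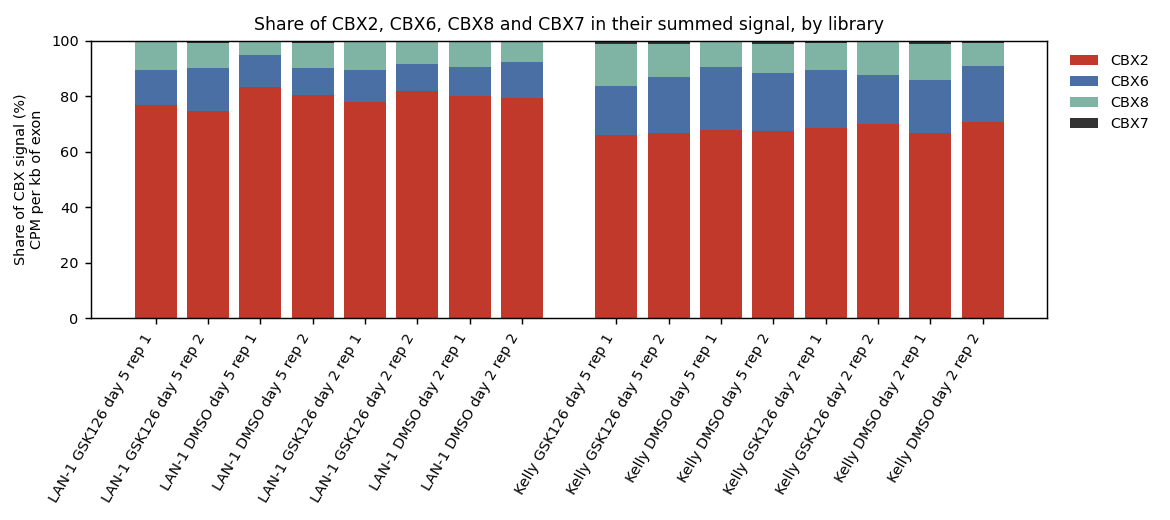
Share of CBX2, CBX6, CBX8 and CBX7 in their summed signal (y axis, percent of CPM per kb of exon, from 0 to 100) for each library (bars), LAN-1 on the left and Kelly on the right. CBX2 takes 74.7 to 83.3% in LAN-1 bars and 66.2 to 70.7% in Kelly bars.

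Of the ubiquitin ligases, RNF2, also called RING1B, lies at chr1:185014658-185071735 on the plus strand. In LAN-1 it had 82.5 and 62.8 CPM with GSK126 and 82.2 and 84.0 CPM with DMSO at day 5, and 82.4 and 90.5 CPM with GSK126 and 84.5 and 80.1 CPM with DMSO at day 2. In Kelly it had 95.1 and 103.9 CPM with GSK126 and 84.5 and 66.9 CPM with DMSO at day 5, and 89.4 and 75.3 CPM with GSK126 and 74.6 and 62.4 CPM with DMSO at day 2. In Kelly both GSK126 libraries exceeded both DMSO libraries on either day, and in LAN-1 they overlapped. The log2 difference in Kelly at day 5 was 0.41 ± 0.15 (unadjusted p = 0.00833, adjusted p = 0.113), a ratio of 1.33 with an interval from 1.08 to 1.64, the smallest adjusted p of any member and GSK126 comparison within a line. It was 0.29 ± 0.16 in Kelly at day 2 (adjusted p = 0.720) and -0.16 ± 0.16 in LAN-1 at day 5 (adjusted p = 0.697). The difference of effects at day 5, LAN-1 minus Kelly, was -0.57 ± 0.22 (unadjusted p = 0.0130, adjusted p = 0.217). The LAN-1 library with GSK126 at day 5, replicate 2, had the lowest RNF2 level of its line. Without it the LAN-1 effect at day 5 was -0.0085 (adjusted p = 1) and the difference of effects -0.42 (adjusted p = 0.572), and without replicate 1 of that group they were -0.41 (adjusted p = 0.309) for the LAN-1 effect and -0.81 (adjusted p = 0.0614) for the difference. The effect in Kelly at day 5 was 0.23 (adjusted p = 0.697) without Kelly DMSO replicate 2 of day 5. RNF2 transcripts have 36.0% GC, at the 3.69 percentile of tested genes. With the GC correction the difference between lines was -0.32 (adjusted p = 0.601) and the effect in Kelly at day 5 was 0.38 (adjusted p = 0.0786).

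RING1, the other ligase, lies at chr6:33176277-33180499 on the plus strand. In DMSO it had 18.8 and 15.1 CPM at day 5 and 16.0 and 17.0 CPM at day 2 in LAN-1, against 20.9 and 32.8 CPM at day 5 and 20.7 and 27.8 CPM at day 2 in Kelly. The LAN-1 libraries were all lower, with a log2 difference of -0.63 ± 0.20 (adjusted p = 0.00303) and a ratio of 0.645. The call was lost without Kelly DMSO replicate 2 of day 2 (adjusted p = 0.0576) or of day 5 (adjusted p = 0.0882). With GSK126, RING1 had 21.7 and 19.8 CPM at day 5 and 21.2 and 18.6 CPM at day 2 in LAN-1, and 33.6 and 25.2 CPM at day 5 and 29.999 and 30.6 CPM at day 2 in Kelly. All 4 LAN-1 libraries with GSK126 were above those with DMSO of the same day, and the mean effect over lines and days was 0.23 ± 0.14 (adjusted p = 0.363). Set against RING1 per kb, RNF2 was at a median of 2.11 times its level in LAN-1, from 1.47 to 2.58 over libraries, against 1.35 times in Kelly, from 0.946 to 1.91. RING1 transcripts have 61.6% GC, at the 90.9 percentile of tested genes. Across genes, the replicate 2 to 1 ratio in Kelly DMSO correlated with GC content, at 0.339 for day 2 and 0.127 for day 5. The part of GC content in the RING1 line difference and in the RNF2 to RING1 ratio was not tested.

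Of the PCGF partners, PCGF2, also called MEL18, lies at chr17:36890151-36906070 on the minus strand. In DMSO it had 16.7 and 26.1 CPM at day 5 and 17.9 and 25.8 CPM at day 2 in LAN-1, against 31.4 and 35.9 CPM at day 5 and 26.1 and 30.3 CPM at day 2 in Kelly. The highest LAN-1 library and the lowest Kelly library were both near 26 CPM, yet the lines did not overlap. The log2 difference was -0.54 ± 0.18 (adjusted p = 0.00593), a ratio of 0.689, and the call was lost without LAN-1 DMSO replicate 1 of day 2 (adjusted p = 0.0582) or of day 5 (adjusted p = 0.0874). With GSK126, PCGF2 had 30.1 and 25.3 CPM at day 5 and 19.6 and 23.2 CPM at day 2 in LAN-1, and 32.8 and 35.9 CPM at day 5 and 34.3 and 26.8 CPM at day 2 in Kelly. All of these overlapped the DMSO libraries of the same line and day, and the largest difference was 0.42 ± 0.28 in LAN-1 at day 5 (adjusted p = 0.457). Exons of PCGF2 overlap CISD3 on the opposite strand, and the strand setting of the counting is not given in the sources used here, so reads of the pair cannot be told apart.

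BMI1, the PCGF protein first known as a partner of MYC in mouse lymphoma, lies at chr10:22610028-22620413 on the plus strand. It had 6 to 14 counts per library in LAN-1 and 5 to 11 in Kelly, with medians of 6.82 CPM in LAN-1 and 6.25 CPM in Kelly. The difference between lines in DMSO was 0.12 ± 0.37 (adjusted p = 0.790). At these counts a change would have had to be large: the ratio of GSK126 to DMSO in Kelly at day 5 was 1.35 with a 95% interval from 0.618 to 2.96. The BMI1 count is uncertain, because the gene shares exons with a readthrough gene on the same strand, COMMD3-BMI1, whose own row held 0 counts in all 16 libraries. Among the 6 PCGF genes, PCGF2 made up a median of 8.56% of the signal per kb in LAN-1 and 16.4% in Kelly, and BMI1 1.86% in LAN-1 and 2.44% in Kelly.

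PHC1, a polyhomeotic subunit whose SAM domain joins complexes into chains, lies at chr12:9066492-9094063 on the plus strand. In DMSO it had 21.6 and 14.3 CPM at day 5 and 28.2 and 21.1 CPM at day 2 in LAN-1, against 35.9 and 28.6 CPM at day 5 and 33.2 and 29.7 CPM at day 2 in Kelly. The highest LAN-1 library lay just under the lowest Kelly library. The log2 difference was -0.57 ± 0.18 (adjusted p = 0.00346), a ratio of 0.674, and the call held without any 1 of the 16 libraries, with adjusted p-values up to 0.0389. With GSK126, PHC1 had 21.0 and 17.6 CPM at day 5 and 18.0 and 17.8 CPM at day 2 in LAN-1, and 37.7 and 34.4 CPM at day 5 and 27.6 and 34.5 CPM at day 2 in Kelly. Its lowest estimate was -0.47 ± 0.28 in LAN-1 at day 2 (adjusted p = 0.827). PHC1 shares exon sequence with M6PR on the opposite strand, which adds the same uncertainty as for PCGF2. PHC1 made up 12.3% of the PHC signal per kb in LAN-1 and 17.9% in Kelly.

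The effect of GSK126 at day 5 against day 2 was also tested, and 0 of 8 members were called by edgeR or DESeq2 in LAN-1, where 0.539% of all genes were called, and 0 of 8 in Kelly, where 0.379% were. In each line 1 member of 8, CBX6, had an unadjusted p under 0.05, as did 10.0% of all genes in LAN-1 and 7.55% in Kelly, with a difference of 0.55 ± 0.28 in LAN-1 (adjusted p = 0.484) and -0.44 ± 0.22 in Kelly (adjusted p = 0.648). The line difference of the effect at day 2 had 0 of 8 members called by either tool and 0 at an unadjusted p under 0.05, where 0.00843% of all genes were called. Time in culture alone, day 5 against day 2 in DMSO, gave 0 of 8 by either tool and 0 at an unadjusted p under 0.05 in both lines, where 0.438% of all genes were called in each. The lowest adjusted p of a member there was 0.815 for PHC1 in LAN-1 and 0.786 for CBX6 in Kelly.

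Around the members, 22 other PRC1 genes were listed and all were tested. With GSK126, edgeR called 1 higher and 0 lower in LAN-1 at day 5, 0 in LAN-1 at day 2 (2 at an unadjusted p under 0.05, as were 6.23% of all genes), and 1 higher and 0 lower in Kelly on each day. Of all genes, it called 3.66% in LAN-1 and 4.90% in Kelly at day 5, and 0.152% in LAN-1 and 0.177% in Kelly at day 2. DESeq2 called 1 in LAN-1 at day 5 and 0 in the other 3. In LAN-1 at day 5 it was BCOR, a corepressor of a variant complex, with 246.2 and 271.1 CPM with GSK126 and 208.2 and 160.5 CPM with DMSO. Its log2 difference of 0.47 ± 0.11 (adjusted p = 0.00580, DESeq2 0.0256) was lost without DMSO replicate 2 (adjusted p = 0.30) or GSK126 replicate 2. In Kelly it was AUTS2, a neuronal variant subunit, with 145.9 and 144.4 CPM with GSK126 and 103.1 and 105.2 CPM with DMSO at day 5, and 128.6 and 143.6 CPM with GSK126 and 85.4 and 96.5 CPM with DMSO at day 2. All 4 Kelly libraries with GSK126 were above all 4 with DMSO. AUTS2 is named because it was called in these comparisons, so this separation is a description only. The share of all genes with it was not counted. The log2 difference of AUTS2 was 0.48 ± 0.13 at day 5 (adjusted p = 0.0124, DESeq2 0.141) and 0.57 ± 0.13 at day 2 (adjusted p = 0.0319, DESeq2 0.794), and it was lost on each day without any 1 of the 4 libraries compared (adjusted p up to 0.112 at day 5 and 0.522 at day 2).

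In the mean over lines and days, AUTS2 was higher with GSK126 by 0.29 ± 0.06 on the log2 scale (adjusted p = 0.00106, DESeq2 0.0194). The Kelly estimates made up most of this mean. In LAN-1, AUTS2 had log2 differences of 0.15 ± 0.12 at day 5 (adjusted p = 0.582) and -0.06 ± 0.13 at day 2 (adjusted p = 0.988). For the difference of effects between lines, edgeR called 0 of the 22 other PRC1 genes on either day. The smallest adjusted p among the 22 was 0.0797 at day 5 and 0.643 at day 2. Of all genes, 1.85% were called at day 5 and 0.00843% at day 2. A line difference in the effect on AUTS2 is therefore not shown. BCORL1, a relative of BCOR, was higher in the mean by 0.36 ± 0.09 (adjusted p = 0.00409, DESeq2 0.0620), with 0.49 in LAN-1 and 0.46 in Kelly at day 5 and 0.07 in LAN-1 and 0.41 in Kelly at day 2. PCGF1, the PCGF partner of BCOR, was lower in the mean by a log2 difference of -0.30 ± 0.09 (adjusted p = 0.0319, DESeq2 0.213). Its difference was 0.07 ± 0.17 in LAN-1 and -0.65 ± 0.23 in Kelly at day 5. At day 2 it was -0.37 ± 0.15 in LAN-1 and -0.27 ± 0.19 in Kelly. The LAN-1 estimate at day 5 lay above 0 by less than its SE, so its direction is uncertain. The call on the mean held in 7 of 16 fits that left out 1 library (adjusted p up to 0.267, without Kelly GSK126 replicate 2 of day 5). Between lines in DMSO, 10 of the 22 were higher and 3 lower in LAN-1, where 33.5% of all genes were higher and 34.2% lower. Of 11 PRC2 genes tested, edgeR called 3 lower and 0 higher in the mean over lines and days, where it called 6.47% of all genes. DESeq2 called EZH2 alone. EZH2, the target of the inhibitor, fell by 0.27 ± 0.06 on the log2 scale (adjusted p = 0.00155, DESeq2 0.0221). RBBP7, a histone-binding subunit, had -0.22 ± 0.06 (adjusted p = 0.00853, and 0.0512 without LAN-1 GSK126 replicate 2 of day 2). PHF19, a subunit that reads methylated H3K36, had -0.32 ± 0.09 (adjusted p = 0.0159, and up to 0.0888 without 1 library, LAN-1 DMSO replicate 1 of day 5). EZH2 was also lower in LAN-1 than in Kelly in DMSO, with a log2 difference of -0.75 ± 0.08 (adjusted p = 7.47e-15). MYCN, the oncogene amplified in both lines, was lower with GSK126 in Kelly at day 5, by a log2 difference of -0.39 ± 0.08 (adjusted p = 1.81e-04), and had 0.14 ± 0.08 in LAN-1 at day 5 (adjusted p = 0.362). Of 6 genes for enzymes and cofactors that remove ubiquitin from histone H2A, edgeR and DESeq2 each called 0 with GSK126 in either line on either day. In LAN-1 at day 5, 1 had an unadjusted p under 0.05, as did 16.7% of all genes. In DMSO, 4 of the 6 were higher and 1 lower in LAN-1 than in Kelly, where 33.5% of all genes were higher and 34.2% lower.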

How the data were processed

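RNA-seq read counts per gene symbol were deposited by the authors as 1 table of raw counts for 16 libraries. The submitters' processing notes list TopHat2, featureCounts and FastQC and the build GRCh37 (hg19); versions, annotation, strand setting and the handling of shared reads are not given in the sources used here. Counts were tested with edgeR 4.0.16 in R 4.3.3, with filterByExpr at a minimum count of 10, TMM scaling (factors 0.977 to 1.03) and a robust quasi-likelihood fit of 8 group means over 16 libraries. P-values were adjusted by Benjamini-Hochberg over 11863 genes, and a gene was called at an adjusted p under 0.05. SE values are the size of the log2 difference over the root of the F statistic of the test, with n = 2 libraries per group. The spread used for a gene was largely pooled across genes. For the members it had 119 degrees of freedom in total, where the libraries gave 8. DESeq2 1.42.0 was an alternative. The script was tested on simulated data. Exon lengths, GC content and positions came from GENCODE 44 lifted to GRCh37, and GC content was available for 92.9% of tested genes. Libraries totalled 912095 to 1666190 counts, which limits genes with few reads. Duplicates differed by 1.11 to 2.04 times counting noise, and all were kept as libraries. This ratio cannot tell technical repeats from separate cultures. Named genes were the members in every comparison, other PRC1 genes called with GSK126, EZH2 and MYCN, and RBBP7, PHF19, DBH and TH were added after their values were seen. Genes with a pattern like a member's were to be named for members called with GSK126, and no member was. Members and lists were chosen with earlier results of these data known. The list of other PRC1 genes leaves out 1 gene, which is not reported here.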

Additional observations from a re-analysis of the deposited data

Results flagged for a closer look

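The effect of GSK126 on CBX6 at day 5 pointed in opposite directions in the lines. Both GSK126 libraries lay above both DMSO libraries in LAN-1, and both lay below in Kelly. At day 5, 44.2% of all genes did not overlap in LAN-1 and 46.8% in Kelly. For CBX6 the difference of the log2 effects, LAN-1 minus Kelly, was 0.80 ± 0.25 (edgeR, adjusted p = 0.0793), so the test of the difference itself missed the threshold. It was 0.52 (adjusted p = 0.536) without the LAN-1 GSK126 library of day 5, replicate 2, and 1.13 (adjusted p = 0.00642) without replicate 1 of that group.

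The effect of GSK126 on BMI1 in Kelly pointed in opposite directions on the days. Both GSK126 libraries lay above both DMSO libraries at day 5, and both lay below at day 2. In Kelly 46.8% of all genes did not overlap at day 5 and 36.7% at day 2. The share of all genes that separated in opposite directions was not counted. For BMI1 the difference of the log2 effects, day 5 minus day 2, was 0.66 ± 0.75 (edgeR, adjusted p = 0.931). It came from 5 to 11 counts per library, and this difference too did not pass its test.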

How the results depend on the processing

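Across RLE scaling, library totals only, a looser and a stricter filter, DESeq2, the 8 libraries of a line alone, the replicate block and the GC correction added after the data were seen, 0 members were called in every comparison of GSK126 or of time. Between LAN-1 and Kelly in DMSO the count stayed at 5 in the settings run for it, except 6 with the looser filter, which added CBX7. With 1 library left out, calls between the lines were lost for CBX2, RING1 and PCGF2 and gained for CBX8 and RNF2. Leaving out 1 library at a time gave 0 to 1 members in LAN-1 at day 5 and 0 to 1 for the difference of effects between lines at day 5; the member was CBX6 each time. There a group keeps 1 library, assumed to vary like the other groups. Without Kelly DMSO replicate 1 of day 2, that difference of effects was 0.83 (adjusted p = 0.0479). Of 2252 values of single members under an alternative, 2239 kept their side of the threshold, 5 lost a call, 8 gained one, 0 called values reversed and 103 uncalled values changed sign. The replicate block called 0 members with GSK126 and 5 between lines. Deviations of same-numbered libraries had correlations of -0.057, -0.029, -0.006 and 0.071 for the line and day pairs. Pairing was taken as shown above 0.1, and these values lay below that. Duplicates differed by 1.11 to 2.04 times counting noise, so such low correlations do not decide the question. Whether the numbers pair the samples was otherwise not tested. The fit to 1 line cannot give the mean effect or a difference between lines, and the GC correction was not run for the comparison of the lines in DMSO. Low counts limit BMI1 and CBX7 most: BMI1 had 5 to 14 counts per library and CBX7 0 to 8, which leave moderate changes undetectable. The parts of depth and of exons shared with COMMD3-BMI1 in the low BMI1 count were not tested.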
